A study of Rattus norvegicus with 7 samples.

Results

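Mast cell genes were examined in RNA from colon crypts of Sprague Dawley rats, as 15 of the 16468 genes of the deposited expression table. They were chosen by name: every symbol made of Mcpt and a number (8 genes: Mcpt1, Mcpt2, Mcpt3, Mcpt4, Mcpt8, Mcpt8l2, Mcpt9 and Mcpt10), and 7 genes named singly (Cpa3, Cma1, Tpsab1, Tpsb2, Fcer1a, Ms4a2 and Hdc). The rats belonged to an outbred laboratory strain, carried no labelled alteration or treatment, and were 14 weeks old. Crypts, the epithelial pits of the colon wall, were taken from the proximal and from the distal colon, and for each region the material of 7 rats was pooled into 1 RNA library. The comparison is therefore between 2 libraries, with no replicate and no measure of the variation between rats. By its title the series is about histone modifications and proto-oncogene expression at different sites of the colon, and its 5 chromatin libraries were not analysed here.

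Mast cells are immune cells that store proteases, histamine and the proteoglycan serglycin in granules and release them when antigen crosslinks immunoglobulin E (IgE) on their surface receptor. In rodents, mucosal mast cells of the gut lie in the lamina propria and within the epithelium and carry mainly chymases of the mucosal type. Connective tissue mast cells of the submucosa, skin and peritoneum are known instead for tryptases, carboxypeptidase A3 and other chymases. Chymases cleave after aromatic residues, tryptases after lysine or arginine, and carboxypeptidase A3 trims single residues from the carboxyl end of peptides.

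Mast cell genes were lower in distal than in proximal crypts. All 12 members that reached 1 FPKM (read fragments relative to transcript length and sequencing depth) in at least 1 library were lower there, at plain ratios of proximal over distal from 1.45 to 3.71 with a median of 2.29. Summed over the 15 genes, the level was 447 FPKM proximally and 197 FPKM distally, 2.27-fold apart, and 172 and 64.4 FPKM (2.66-fold) without Mcpt2, the most abundant of them. For counts, the regions were compared as log2((distal FPKM + 1)/(proximal FPKM + 1)), a scale on which low genes look closer than they are, and at least 2-fold on this scale means a value of 1 or more in either direction. By this rule 8 of the 15 members were higher in proximal crypts and 0 were higher in distal crypts. Among the 9847 genes that reached 1 FPKM in a library, 3.91% were 2-fold or more higher in proximal and 3.71% in distal crypts, and 38.6% were lower in the distal library by any amount. The median log2 ratio was -1.02 over the 12 members and -1.01 over the 13 listed above 0, against 0.09 over the 9847 genes. The other 3 members were Cma1, below 1 FPKM in both libraries, and Tpsab1 and Tpsb2, listed at 0 in both. Of the 12, 11 had at least 1 FPKM in both libraries, and Mcpt3 passed through the proximal library alone. In pooled crypt material, a lower share of mast cells, for whatever reason, and less mast cell RNA per cell cannot be told apart. Nor can either be told apart from a difference in other cells that make some of these genes.

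The authors' deposited table called 4 of the members higher in proximal crypts, Mcpt1, Mcpt2, Mcpt9 and Cpa3, and 0 higher in distal crypts. Of the 10099 genes it tested, it called 2.69% higher in proximal and 2.73% higher in distal crypts. Its test statistics imply standard errors (SE) from 0.30 to 0.88 (median 0.71) on the log2 scale for the 12 members. Those errors come from the model behind that table and hold no variation between rats, and no test of the regions was added here.

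**Figure D1:**
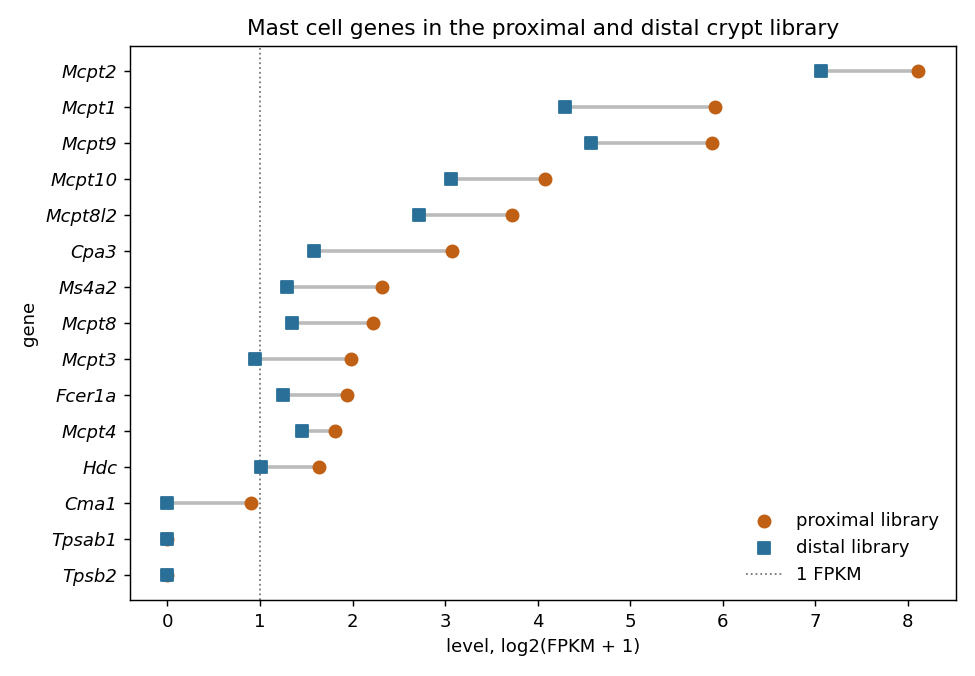
Level of each of the 15 mast cell genes, as log2(FPKM + 1), in the proximal library (circles) and the distal library (squares), with a dotted line at 1 FPKM. For 13 genes the circle lies to the right of the square, and for Tpsab1 and Tpsb2, listed at 0 in both libraries, the square covers the circle.

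Sequence just before the gene start fell into unlike groups. It is shown to compare the members, among them Cma1, Tpsab1 and Tpsb2, which did not reach 1 FPKM in either library. By symbol, 11 of the 15 members were matched to entries of the RefSeq promoter table of the GRCr8 assembly, whereas Mcpt2, Mcpt10 and Ms4a2 were not, and Mcpt1 was left out for a reason of naming given below. Each window of that table holds the 250 bases before a transcription start. In 5 of the 11 that start lies 16 to 92 bases inside the gene at its widest annotated extent, and the sequences below are cut where the gene so annotated begins, which is the start from which distances are given. Within the chymase genes, Mcpt3 at chr15:33501699-33501948 (plus strand) and Mcpt4 at chr15:33471241-33471490 (plus strand) had 95.3% identical bases over 232 aligned bases. Capitals mark GATAA on either strand, the core of the sequence bound by GATA factors, which are known regulators of mast cell genes:
Mcpt3: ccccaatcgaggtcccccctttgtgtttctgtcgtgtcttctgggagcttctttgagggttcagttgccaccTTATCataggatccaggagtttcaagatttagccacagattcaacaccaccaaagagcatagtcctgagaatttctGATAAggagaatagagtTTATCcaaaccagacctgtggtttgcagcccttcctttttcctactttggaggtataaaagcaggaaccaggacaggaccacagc
Mcpt4: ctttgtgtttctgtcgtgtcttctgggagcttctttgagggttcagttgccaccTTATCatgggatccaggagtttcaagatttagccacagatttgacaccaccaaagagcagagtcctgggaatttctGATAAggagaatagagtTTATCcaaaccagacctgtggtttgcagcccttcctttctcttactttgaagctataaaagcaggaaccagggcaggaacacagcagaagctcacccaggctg

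Both sequences held GATAA 3 times, with the first bases at 178, 102 and 85 bases before the start of Mcpt3 and at 196, 120 and 103 bases before that of Mcpt4. Cpa3, at chr2:104673254-104673487 (minus strand), and Fcer1a, at chr13:88224724-88224929 (minus strand), each held it once, 38 and 49 bases before the start. The chymase Cma1, at chr15:33390134-33390383 (minus strand), also held it once, 63 bases before the start:
Cpa3: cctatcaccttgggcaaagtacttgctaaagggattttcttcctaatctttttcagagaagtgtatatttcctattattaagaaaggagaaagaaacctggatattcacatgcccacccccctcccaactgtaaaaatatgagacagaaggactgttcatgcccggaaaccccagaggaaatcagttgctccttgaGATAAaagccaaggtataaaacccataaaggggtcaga
Fcer1a: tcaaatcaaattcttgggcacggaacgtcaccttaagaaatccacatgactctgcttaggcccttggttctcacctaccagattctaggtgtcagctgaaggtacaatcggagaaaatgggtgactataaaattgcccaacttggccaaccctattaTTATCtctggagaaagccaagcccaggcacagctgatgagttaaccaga
Cma1: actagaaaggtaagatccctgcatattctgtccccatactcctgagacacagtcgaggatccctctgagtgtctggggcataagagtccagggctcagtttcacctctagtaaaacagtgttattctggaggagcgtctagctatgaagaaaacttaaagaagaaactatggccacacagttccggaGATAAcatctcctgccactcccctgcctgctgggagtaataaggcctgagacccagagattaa

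In Mcpt8, Mcpt8l2 and Mcpt9 of the Mcpt8 family no GATAA was found in the 250 bases. When cut at the gene, the sequences were nearly the same: Mcpt8l2 shared 96.8% of 158 aligned bases with both Mcpt8 and Mcpt9, and Mcpt8 and Mcpt9 shared 96.4% of 168. They lie at chr15:33769399-33769574 (plus strand), chr15:33718231-33718388 (plus strand) and chr15:33827180-33827347 (plus strand):
Mcpt8: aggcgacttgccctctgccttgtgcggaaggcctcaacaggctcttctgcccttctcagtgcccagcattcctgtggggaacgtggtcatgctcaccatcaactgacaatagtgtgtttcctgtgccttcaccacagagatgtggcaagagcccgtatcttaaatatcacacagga
Mcpt8l2: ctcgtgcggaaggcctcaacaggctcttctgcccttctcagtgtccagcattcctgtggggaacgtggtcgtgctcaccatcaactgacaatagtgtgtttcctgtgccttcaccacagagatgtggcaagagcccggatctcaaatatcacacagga
Mcpt9: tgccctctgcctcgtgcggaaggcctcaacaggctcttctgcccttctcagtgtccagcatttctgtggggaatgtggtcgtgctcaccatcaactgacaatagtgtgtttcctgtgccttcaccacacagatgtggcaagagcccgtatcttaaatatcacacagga

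Of the 55 pairs among the 11 sequences cut in this way, 5 aligned over at least 100 bases. The fifth was the pair of tryptase genes Tpsab1 and Tpsb2, with 65.5% identical bases over 200. Searched on both strands, GATAA was in 6 of the 11 windows (besides those shown, in Tpsab1) and in 23.5% of the 33469 windows of this length in the table. CATGTG, a form of the E-box bound by the mast cell factor MITF, was in 3 of the 11 (Cpa3, Fcer1a and Tpsb2) and in 12.1% of all windows. CACGTG, another such form, was in 0 of the 11 and in 5.59% of all, and the TATA-box letters TATAAA were in 4 of the 11 (Mcpt3, Mcpt4, Cpa3 and Fcer1a) and in 12.9% of all. None of these matches overlapped another. They describe letters in a window and do not show binding. Nor are the 11 windows independent of each other, since those of Mcpt3 and Mcpt4 are near copies, as are those of Mcpt8, Mcpt8l2 and Mcpt9. All 12 members that reached 1 FPKM were lower in the distal library, so splitting them by GATAA says nothing about the difference. Among them the windows of Cpa3, Fcer1a, Mcpt3 and Mcpt4 held GATAA, and those of Hdc, Mcpt8, Mcpt8l2 and Mcpt9 did not. Mcpt1, Mcpt2, Mcpt10 and Ms4a2 had no window in this comparison. A part of these letters in the difference was not tested.

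Mcpt2, a symbol known for rat mast cell protease 2, the classical chymase of mucosal mast cells, was the most abundant member. It stood at 275 FPKM proximally and 133 FPKM distally, 2.07-fold apart, and took rank 193 and rank 627 among the 16468 genes of the 2 libraries. This gene made up 61.6% of the members' summed level proximally and 67.3% of it distally. The authors' deposited table gave it a log2 fold change of -1.05 (implied SE 0.30) at a q of 0.0108. Its locus is chromosome 15, 34556079 to 34558413, of the rn4 build that the table uses, where only gene loci and no exons are given. Among the RefSeq genes of GRCr8, none on chromosome 15 has the symbol Mcpt2, and rMCP-2 is an older name of the gene now called Mcpt1. Which current gene this row holds is therefore uncertain too, and the value is given for the locus.

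Mcpt1 stood at 59.2 FPKM proximally and 18.7 FPKM distally, 3.17-fold apart. In the authors' deposited table the log2 fold change was -1.67 (implied SE 0.40) at a q of 0.00152. The symbol is known for rat mast cell protease 1, a chymase of connective tissue mast cells, but which gene this row holds is uncertain. Its rn4 locus, chromosome 15, 34270481 to 34273035, spans 2555 bases and follows that of Mcpt3. In the GRCr8 gene table the gene Vch, named for a vascular chymase, has the same span of 2555 bases and is the first protein-coding gene after Mcpt3, while the symbol Mcpt1 now belongs to a gene with a span of 2569 bases whose older names include both rMCP-1 and rMCP-2. The value is therefore given for the locus, and the promoter entry named Mcpt1 was not used.

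Mcpt3 and Mcpt4, related chymases, were far less abundant than Mcpt2. Mcpt3 stood at 2.96 and 0.920 FPKM in proximal and distal crypts, 3.22-fold apart. Mcpt4 stood at 2.52 and 1.74 FPKM, 1.45-fold apart, the least of the 12. Neither was called in the authors' deposited table, where Mcpt3 had a log2 fold change of -1.69 with an implied SE of 0.79 and Mcpt4 one of -0.54 with 0.75. The 2 genes thus had nearly the same level in the proximal library, and their implied errors are wide.

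The Mcpt8 family, relatives of granzymes whose mouse counterpart Mcpt8 is known as a basophil protease, was led by Mcpt9 at 57.9 FPKM proximally and 22.8 FPKM distally, 2.54-fold apart. Mcpt10 stood at 15.9 and 7.37 FPKM (2.15-fold), Mcpt8l2 at 12.2 and 5.58 FPKM (2.20-fold) and Mcpt8 at 3.66 and 1.54 FPKM (2.38-fold). Of these 4, the authors' deposited table called Mcpt9 alone, with a log2 fold change of -1.35 (implied SE 0.45) at a q of 0.0491. Mcpt9, Mcpt10 and Mcpt8l2 share 1 locus of 113893 bases in the table (chromosome 15, 34430943 to 34544835), and how reads were split between genes that share a locus is uncertain. Mcpt8, at its own locus from 34408591 to 34411548, does not share that locus. How reads that match several related Mcpt genes were assigned is not known here either, at this locus or at the others.

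Cpa3, Cma1, Tpsab1 and Tpsb2 are known for connective tissue mast cells, and of these Cpa3 alone reached 1 FPKM. Cpa3, the carboxypeptidase, had the widest ratio of the 12, at 7.42 FPKM proximally and 2.00 FPKM distally, 3.71-fold apart (chromosome 2, 105368835 to 105402657). The authors' deposited table gave Cpa3 a log2 fold change of -1.89 (implied SE 0.61) at a q of 0.0400. Cma1, whose product is also known as mast cell protease 5, stood at 0.868 FPKM in the proximal library and was listed at 0 in the distal library, so no ratio is given. The tryptase genes Tpsab1 and Tpsb2, whose older symbols are Mcpt7 and Mcpt6, were listed at 0 in both libraries. For genes of about 942 bases, 3 reads correspond to 0.426 FPKM proximally and 0.339 FPKM distally, so Cma1 lay above that level in the proximal library. Cldn3, a claudin gene known to be expressed in colon epithelium, was listed at 0 in both libraries too, so a 0 in this table is given as listed and is read neither as absence nor as a limit of depth.

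The IgE receptor genes were low and were both lower in distal crypts. Ms4a2, the beta chain that amplifies the signal of the receptor, stood at 4.004 FPKM proximally and 1.46 FPKM distally, 2.75-fold apart (chromosome 1, 214011050 to 214018999). Fcer1a, the alpha chain that binds IgE, stood at 2.84 and 1.37 FPKM, 2.08-fold apart (chromosome 13, 89429982 to 89436507). In the authors' deposited table their log2 fold changes, -1.46 and -1.05, differ by -0.40 with an implied SE of 0.95. Hdc, the enzyme that makes histamine from histidine, stood at 2.11 and 1.01 FPKM, 2.09-fold apart (chromosome 3, 114119318 to 114138107). That table called none of the 3 genes.

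Among themselves the members differed in ratio by amounts close to these errors. The widest and the least ratio, of Cpa3 and Mcpt4, differed by -1.35 in the log2 fold changes of the authors' deposited table, with an implied SE of 0.97. Mcpt1 and Mcpt2 differed by -0.61 with an implied 0.50. By level, Mcpt2 was the highest in both libraries, whereas Mcpt1 lay above Mcpt9 in the proximal library and below it in the distal library. With 1 library per region no spread is known for these ranks.

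**Figure D2:**
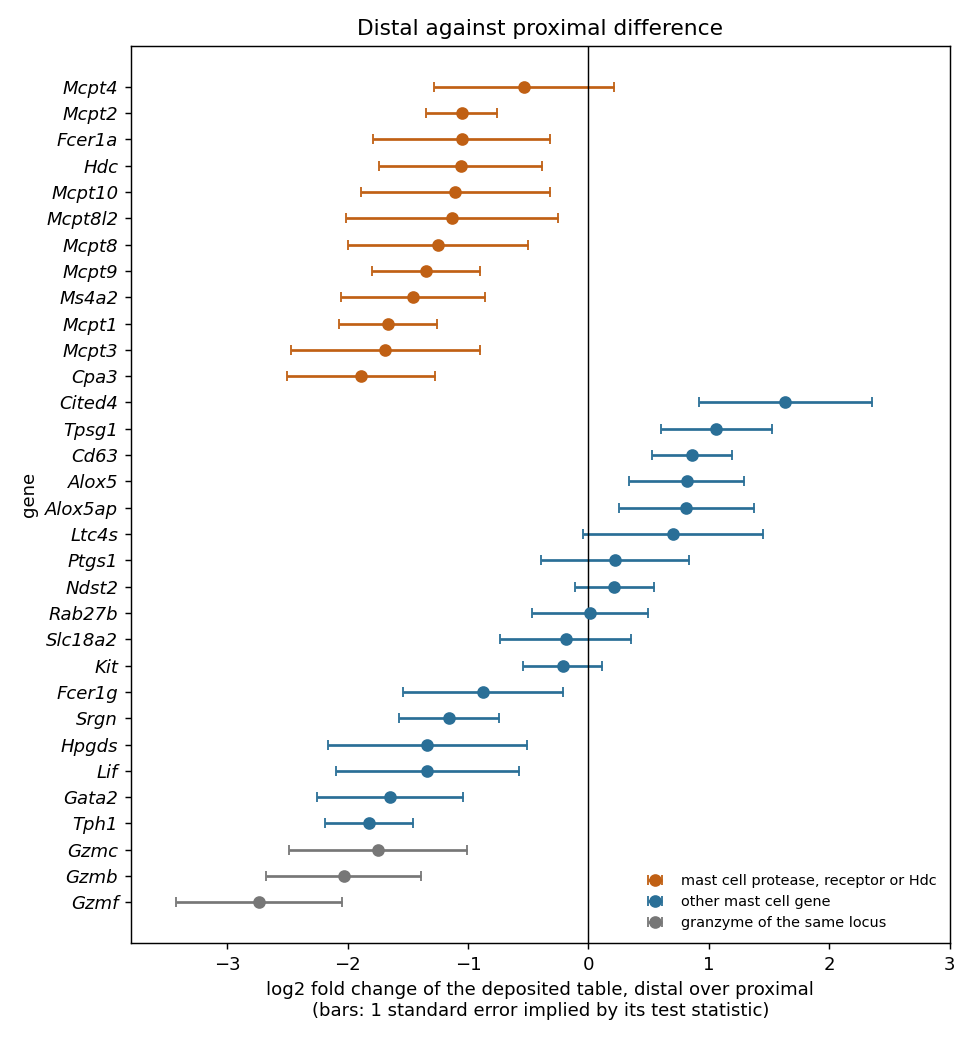
Log2 fold change of distal over proximal in the authors' deposited table, with 1 standard error implied by its test statistic. The genes are the 12 mast cell members that have such a value and the 17 other mast cell genes that reached 1 FPKM. Also shown are the 3 listed granzymes of the same locus that reached it. All 12 members and the 3 granzymes lie left of 0, among the members the bar of Mcpt4 alone reaches across it, and 8 of the 17 other genes lie left of 0.

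Of the members, 9 lie together on chromosome 15 over 475.2 kb, in the order Cma1, Mcpt4, Mcpt3, Mcpt1, Mcpt8, the locus of Mcpt9, Mcpt10 and Mcpt8l2, and Mcpt2. This is the chymase locus, where mast cell chymases, cathepsin G and granzymes, the proteases of cytotoxic lymphocytes, neighbour each other. The gene before Cma1, Sdr39u1, stood at 39.1 and 42.2 FPKM in proximal and distal crypts. Beyond Mcpt2, the granzyme genes were also lower in the distal library: Gzmf stood at 9.81 and 1.47 FPKM (6.67-fold apart), Gzmb at 5.81 and 1.42 FPKM (4.09-fold) and Gzmc at 4.51 and 1.34 FPKM (3.36-fold). These 3 granzymes, which reached 1 FPKM, of 5 list genes in the table, had a median log2 ratio of -1.49. Ctsg, cathepsin G, stood at 0.390 FPKM and Gzmn at 0.119 FPKM in the proximal library, and both were listed at 0 distally. LOC691670, which the RefSeq gene table names Gzmfl1 and which was not on that list, stood at 3.37 and 0.670 FPKM. Both Gzmf and Gzmb were called higher in proximal crypts in the authors' deposited table. Its log2 fold changes of Gzmf and Mcpt2 differed by -1.69 with an implied SE of 0.75. For Gzmb and Mcpt2 the difference was -0.98 with an implied 0.71. Atp12a, a potassium pump gene that follows Gzmb, was higher in the distal library, at 0.470 and 20.4 FPKM.

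**Figure D3:**
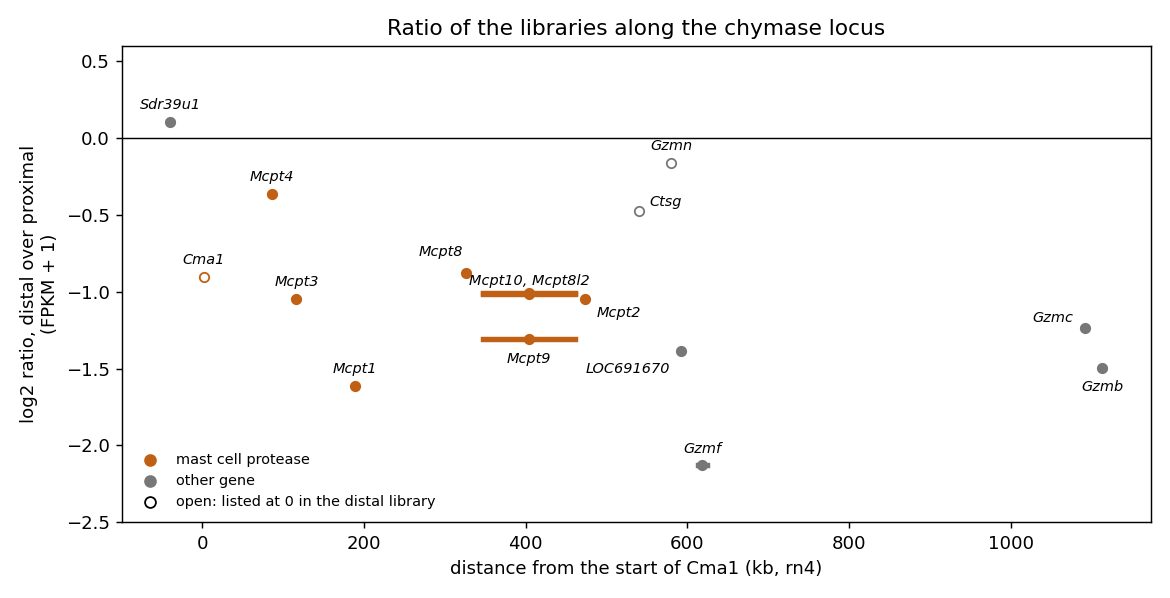
Log2 ratio of distal over proximal, on the FPKM + 1 scale, of genes along the chymase locus against their distance in kb from the start of Cma1, with lines for the extent of each locus and open points for genes listed at 0 in the distal library. The 9 mast cell proteases lie between -0.36 (Mcpt4) and -1.61 (Mcpt1), and the neighbour before Cma1, Sdr39u1, lies at 0.11.

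Other genes known for mast cells did not follow the members as a list. Of 27 in the table, 17 reached 1 FPKM, and 4 of these were 2-fold or more higher in proximal and 2 in distal crypts, with a median log2 ratio of 0.01 that turned negative when the libraries were rescaled. Kit, the receptor for stem cell factor and a defining marker of mast cells that colonic secretory epithelium also makes, stood at 12.1 and 10.5 FPKM in proximal and distal crypts, 1.16-fold apart. In the authors' deposited table the log2 fold change of Kit exceeded that of Mcpt2 by 0.84 with an implied SE of 0.44. It exceeded that of Cpa3 by 1.68 with an implied 0.70, and that of Mcpt1 by 1.45 with 0.52. Gata2, a transcription factor of mast cells and basophils, stood at 3.52 and 1.12 FPKM (3.13-fold), and Srgn, serglycin, which packs the granule proteases, at 31.2 and 14.0 FPKM (2.23-fold). Fcer1g, the gamma chain that the IgE receptor shares with other receptors, stood at 11.7 and 6.36 FPKM. The other 2 on the proximal side were Tph1, an enzyme of serotonin synthesis (17.3 and 4.87 FPKM), and the cytokine gene Lif (5.96 and 2.35 FPKM). Tph1 is counted below among the markers of hormone-producing cells as well. It was the only gene of this list that the authors' deposited table called. On the distal side were Tpsg1, a membrane-anchored tryptase whose locus in the table holds another gene as well (28.01 and 58.5 FPKM), and Cited4 (2.27 and 7.04 FPKM). Cd63, a granule membrane protein found in many cell types, was the most abundant of the list, at 427 and 775 FPKM.

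Signalling genes downstream of the IgE receptor, most of which also act in lymphocytes, were mostly lower in the distal library. Of 17 measured, 13 were lower there, 3 of them at least 2-fold, with a median log2 ratio of -0.57. These 3 were Pik3cd, a lipid kinase subunit of leukocytes (4.93 and 1.20 FPKM in proximal and distal crypts), the kinase Prkcb (2.26 and 0.540 FPKM) and the adaptor Lat2 (7.27 and 2.89 FPKM). The first kinases of the pathway were closer, with Lyn at 13.5 and 14.9 FPKM and Syk at 10.7 and 7.44 FPKM. The calcium entry genes Orai1, at 38.8 and 54.8 FPKM, and Stim1, at 31.4 and 53.3 FPKM, were higher in the distal library.

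Histamine breakdown and transport showed 1 abundant gene. Abp1, now named Aoc1 and encoding diamine oxidase, which degrades extracellular histamine, stood at 324 FPKM proximally and 139 FPKM distally, 2.33-fold apart. The authors' deposited table called Abp1, with a log2 fold change of -1.22 (implied SE 0.39) at a q of 0.0375. Of the 4 measured genes of this list, 2 were 2-fold or more higher in proximal crypts, the other being the monoamine transporter Slc29a4 at 2.07 and 0.475 FPKM, and the median log2 ratio was -0.78. The receptor gene Hrh1 stood at 5.79 and 7.44 FPKM, Hrh2 and the methyltransferase gene Hnmt were listed at 0 in both libraries, and Hrh4 stood at 0.0649 FPKM in the proximal library and was listed at 0 in the distal library. Abp1 was also the gene closest to Mcpt2 in the levels of both libraries, by distance on the log2(FPKM + 1) scale (0.25), followed by Mal2 (0.25), Cldn15 (0.30), Glud1 (0.31) and Nupr1 (0.33). That distance rests on 2 libraries only.

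Growth factors and cytokines that act on mast cells were not lower in the distal library as a list. Of 6 measured, 0 were 2-fold or more higher in proximal and 1 in distal crypts, with a median log2 ratio of 0.22. Kitlg, which encodes stem cell factor, the ligand of Kit, stood at 39.8 and 33.0 FPKM in proximal and distal crypts. The most abundant of the list, Il18, stood at 41.8 and 60.5 FPKM. The integrin gene Itgb6, which takes part in activating transforming growth factor beta, stood at 15.7 and 14.6 FPKM. Tgfb1 itself stood at 5.44 and 2.49 FPKM, a plain ratio of 2.18 that is below 2-fold on the FPKM + 1 scale. The authors' deposited table did not call Tgfb1. Il33, an epithelial alarmin that stimulates mast cells through the receptor encoded by Il1rl1, was higher in the distal library, at 1.94 and 6.59 FPKM (3.39-fold), and was called in the authors' deposited table. Il1rl1 stood at 0.866 and 0.246 FPKM. The genes Il3, Il4, Il9 and Il10 were listed at 0 in both libraries.

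**Figure D4:**
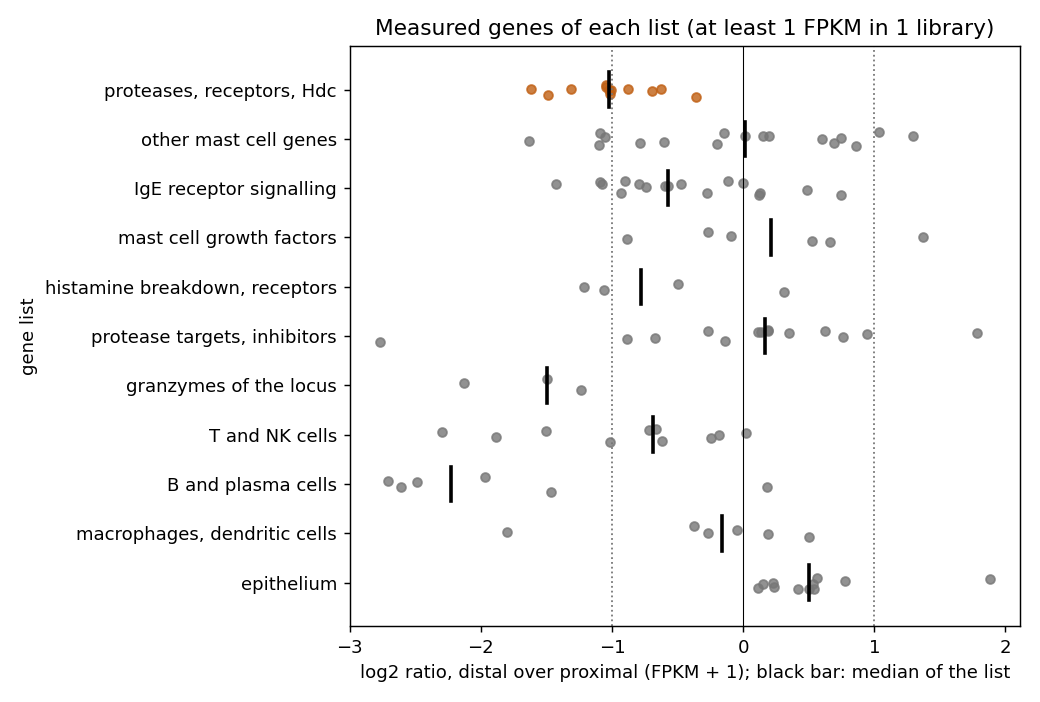
Log2 ratio of distal over proximal (FPKM + 1) of each gene with at least 1 FPKM in 1 library, by list, with a black bar at the median of the list and dotted lines at 2-fold. The 12 mast cell members lie at or left of -0.36, and the 11 epithelial genes lie right of 0, with medians of -1.02 and 0.50.

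Markers of other cell types differed between the libraries as well, and their part in the result was not tested. B and plasma cell markers had 5 of 6 measured genes 2-fold or more higher in proximal crypts (median log2 ratio -2.23), with Cd79b at 8.80 and 0.502 FPKM. Their summed level of 117 and 102 FPKM was mostly Sdc1, which epithelium makes too (88.9 and 101 FPKM). T and NK cell markers had 4 of 10 2-fold or more higher in proximal crypts (median -0.69), with a summed level of 62.1 and 22.0 FPKM and with Gzma at 26.3 and 4.58 FPKM. Macrophage and dendritic cell markers had 1 of 6, Lyz2 (11.1 and 2.50 FPKM), which shares its locus with another gene (median -0.16). Of these 6, 4 were lower in the distal library by any amount. The summed level of that list, 126 and 132 FPKM, was mostly Cd14 (101 and 116 FPKM), and Cd163 and Emr1 were listed at 0 in both libraries. Of 11 measured epithelial markers, 0 were lower in the distal library and 1, Tff3, was at least 2-fold higher there (median 0.50, summed level 9340 and 14000 FPKM), with Epcam at 1490 and 1991 FPKM.

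Of the stromal markers Vim, which encodes the filament protein vimentin and is also made by leukocytes, was the most abundant, at 13.6 FPKM proximally and 7.07 FPKM distally (1.92-fold apart). Of 12 fibroblast and smooth muscle genes that the table holds, 5 were measured, with Pdgfrb 2-fold or more higher in proximal crypts (2.50 and 0.410 FPKM) and Des in the distal library (0.0398 and 2.91 FPKM), a median log2 ratio of 0.0028 and a summed level of 21.8 and 16.9 FPKM. The fibroblast genes Dcn and Lum were listed at 0 in both libraries and Col1a1 stood at 0.170 and 0.445 FPKM. Of 5 endothelial genes that the table holds, 1 was measured, Pecam1, at 1.64 and 1.29 FPKM (log2 ratio -0.21), and their summed level was 2.19 and 1.76 FPKM. Hormone-producing cells, some of which also make Hdc, had 4 of 8 measured markers 2-fold or more higher in proximal crypts and 1, Pyy, in the distal library (median -0.90, summed level 449 and 276 FPKM), with Chgb at 150 and 42.6 FPKM. Their part in the Hdc value was not tested.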

How the data were processed

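RNA of crypts from the proximal and distal colon was measured in 1 pooled library each. Groups follow the sample titles, and table columns were assigned through the sample names printed in them. Per the submitters' processing notes, CASAVA, TopHat2 and the rn4 build go with these samples, with no versions, and no source used here names the software behind the table. The deposited values are read here as FPKM computed by the authors, since they are not whole and their sums differ (412814 and 463340). The deposited log2 fold change, test statistic, p-value and q-value are, per the file headers, the authors' own comparison, and the fold change divided by the statistic gave the implied SE. Of 16492 rows, 23 too low in data or failed and 1 repeated row were left out. Loci start at 0 in the table and 1 was added.

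Read totals were not used here. The commonest p-value of genes at 0 in the other library, taken as 1 read, gave the level of 3 reads for olfactory receptor genes, and no plain proximal over distal ratio is printed where a value is under 0.43 FPKM. Each region has 1 library, so no test was run: values, a rule of size and the authors' calls are given. All members are named, and of each list the genes at least 2-fold apart, a few of the most abundant, and genes of a defining role chosen after their values were seen. The members and the 16 gene lists were chosen with earlier results of these data known. Older symbols were matched through the RefSeq gene table of GRCr8, and promoter windows come from RefSeq on the same build. Ratios and counts were computed with Python 3.11.15 and pandas 2.3.3, windows were aligned with Biopython 1.88, and the counting was tested on simulated data. The alternatives were other pseudocounts, minimum levels, folds and scalings, leaving out shared loci, and the authors' calls.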

Additional observations from a re-analysis of the deposited data

How the results depend on the processing

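Under all 10 alternatives the count of mast cell members 2-fold or more higher in distal crypts was 0. The 8 members 2-fold or more higher in proximal crypts became 3 with a pseudocount of 5 FPKM, 5 of 9 without genes that share a locus, 0 at 4-fold and 4 by the calls of the authors' deposited table, and were 6 to 11 otherwise. The median log2 ratio of the members lay between -1.18 and -0.59. Of 48 recomputed member values, 47 moved by less than their implied SE, and Cpa3 moved to -0.83 with a pseudocount of 5 FPKM. Of 109 list medians, 12 changed sign and 6 moved in the same direction by more than the median implied SE of the members. These 6 were B and plasma cells at -3.93 and -0.89, T and NK cells at -1.40, granzymes of the locus at -0.75, neutrophils at 0.10 and eosinophils at 2.35, with pseudocounts of 0.1 or 5 FPKM or, for neutrophils, no minimum. IgE receptor signalling came to -0.12 with a minimum of 5 FPKM, over 9 genes. Among those that changed sign, other mast cell genes came to -0.16 with no minimum, -0.082 and -0.15 under the rescalings to a median ratio of 0 and to equal upper quartiles, and -0.067 without shared loci. Mast cell growth factors came to -0.034 with no minimum and -0.092 with a minimum of 5 FPKM. Stromal markers came to -0.85 with that minimum and to -0.055 and -0.094 under the rescalings, protease targets and inhibitors to -0.0016 with equal upper quartiles, basophil markers to 1.34 with a minimum of 5 FPKM, and eosinophil markers to -0.15 with no minimum. The cause was not tested. No paired analysis was possible because each region has 1 library. Depth limits the ratios of members near 1 FPKM, such as Hdc and Mcpt3.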

Other observations

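Eosinophil and neutrophil markers were low in both libraries. Of 8 eosinophil genes 1 was measured, Prg2, which encodes the granule major basic protein, at 0.120 and 1.02 FPKM in proximal and distal crypts (log2 ratio 0.85 on the FPKM + 1 scale), and the summed level of the list was 1.5 and 1.72 FPKM. Of 9 neutrophil genes 3 were measured (median log2 ratio 0.92, summed level 4.25 and 8.61 FPKM), with the calcium-binding protein gene S100a8 listed at 0 in the proximal library and at 3.19 FPKM in the distal library, and Mpo and Elane, which encode granule enzymes, listed at 0 in both. Of 5 basophil genes 4 were measured (median -0.40, summed level 95.6 and 397 FPKM): Gata2, which mast cells share, and Cd69 (3.91 and 1.21 FPKM) were higher in the proximal library, and Cd9, a membrane protein of many cell types, was higher in distal crypts (69.9 and 372 FPKM). The fourth, Il3ra, a chain of the interleukin 3 receptor, stood at 18.3 and 22.6 FPKM. Prss34, a basophil protease, was listed at 0 in both libraries.

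Targets and inhibitors of serine proteases had no shared direction, with 1 of 14 measured genes at least 2-fold higher in each library and a median log2 ratio of 0.17. Ace, the angiotensin-converting enzyme, whose product angiotensin II chymases can also form, stood at 14.9 FPKM proximally and 1.34 FPKM distally (11.1-fold). Serpina3n, a serine protease inhibitor, stood at 0.0418 and 2.58 FPKM, and F2rl1, the protease-activated receptor that tryptase cleaves, at 23.4 and 25.9 FPKM. Ctsc, the peptidase that activates chymases and granzymes, stood at 75.6 and 86.6 FPKM. Spint2, an inhibitor of serine proteases in epithelium, was the most abundant of the list, at 1953 and 3007 FPKM.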
